A study of Arabidopsis thaliana x Arabidopsis lyrata and Arabidopsis thaliana x Arabidopsis halleri with 18 samples.

Results

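The genes described here are nuclear genes for the protein subunits of the 2 photosystems and of their light-harvesting antennae. They were chosen by name as 44 *Arabidopsis thaliana* transcripts, of which 30 were listed among the 16419 transcripts of the deposited files. All 6 LHCA antenna transcripts of photosystem I were listed, as were 2 of 9 transcripts of the major photosystem II antenna and 4 of 6 of its minor antennae. Of the core subunits, 9 of 12 photosystem I transcripts, 5 of 6 of the oxygen-evolving complex and its partner PSBR, and 4 of 5 of other small photosystem II subunits were listed. The other 14 (LHCB1.1 to LHCB1.5, LHCB2.1, LHCB2.2, LHCB4.2, LHCB5, PSAE1, PSAH1, PSAL, PSBQ1 and PSBS) were not analysed here, and for LHCB4.2 and PSBQ1 the files list another transcript of the gene than the one named.

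RNA sequencing was done on F1 hybrids that carry 1 genome of *A. thaliana* Col-0 and 1 genome of a second species. The second parent was h2.2, labelled *A. halleri*, or MN47, labelled *A. lyrata*. The file headers name the second allele the other way round, as that of *A. lyrata* in halleri-labelled plants and as that of *A. halleri* in lyrata-labelled plants. The plants are therefore called by their labels, and the non-thaliana allele is called the second allele. Each hybrid had 3 cold-treated plants (1 h at 4 °C in dim light), 3 dehydrated plants (1 h in plastic dishes at 22 °C, also in dim light) and 3 standard plants (22 °C). All plants were 4 weeks old and each of the 18 libraries came from 1 plant. All are listed with 5 days of stratification and a cycle of 16 h light and 8 h dark. The standard plants are described as leaf samples, while the extraction protocol describes RNA from the whole aerial part. The sources used here give neither the light level nor the hour of the day at which standard plants were sampled. A treatment therefore cannot be told apart from dim light or handling when treated plants are set against standard plants.

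Light energy is caught by chlorophyll held in the LHCA proteins, which sit on photosystem I, and in the LHCB proteins, which serve photosystem II. Photosystem II takes electrons from water at a manganese cluster that is shielded by the PsbO, PsbP and PsbQ proteins, and photosystem I passes the electrons on to ferredoxin. Many of these nuclear genes are among the most strongly expressed genes of a green leaf, and their transcription is known to follow light and the circadian clock.

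The deposited values are scaled scores per allele, and the summed values below are the 2 allele scores of a gene added together, less the 1 that the deposited scores carry for each allele. The deposited totals were nearly equal, between 1524104 and 1531268 per library, so a value is close to a share of the library. The 30 genes made up 6.45, 9.93 and 8.29% of the 3 libraries of cold halleri-labelled plants, 13.3, 9.60 and 13.2% in dehydrated ones and 13.4, 8.30 and 7.19% in standard ones. In lyrata-labelled plants they made up 7.20, 4.87 and 8.15% in cold plants, 11.0, 9.02 and 10.9% in dehydrated plants and 11.5, 13.0 and 13.6% in standard plants. In cold libraries many of these genes were at an upper limit, described below, so the cold shares cannot be set directly against the others. In an extract of the whole aerial part, fewer mesophyll cells and less of these RNAs per cell cannot be told apart either. Summed levels of 4 root markers and 3 floral markers were at most 37 and 9 in every library, near 0 beside the photosystem genes.

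The upper end of the scale differed between libraries, and this limits the cold comparisons. In 8 libraries, all 6 from cold plants and those of dehydrated halleri-labelled plants 1 and 3, at least 5 genes had an allele score of 95% or more of the library's highest thaliana score. This pile-up is called the ceiling here. It stood at thaliana scores of 2777, 3795 and 3162 in cold halleri-labelled plants and 2901, 1565 and 3356 in cold lyrata-labelled plants. It stood at 11929 and 10002 in dehydrated halleri-labelled plants 1 and 3, and the other 10 libraries reached 7656 to 36204 with 1 to 3 genes near the top. Where reads could be recovered, the ceiling was at 7964 and 7993 reads. Of the 30 photosystem genes, 10, 12 and 13 were at the ceiling in the cold halleri-labelled plants and 13, 18 and 10 in the cold lyrata-labelled plants. In total 22 genes were at the ceiling in at least 1 library, and 8 never were: LHCA5, LHCA6, LHCB2.3, LHCB4.3, LHCB7, PSAE2, PSBY and PSBTN. These 8 made up 0.332, 0.565 and 0.505% of cold, 0.494, 0.465 and 0.438% of dehydrated and 0.591, 0.145 and 0.118% of standard halleri-labelled libraries. In lyrata-labelled plants they made up 0.643, 0.47 and 0.575% in cold, 0.607, 0.434 and 0.66% in dehydrated and 1.444, 1.093 and 1.145% in standard libraries. A value at the ceiling is read as a lower bound, save for the cases named below, so no fall can be read from it. Allele ratios were mostly smaller there as well. Over the 8 libraries the median size of the log2 ratio was 0.0061 to 0.129 for the photosystem genes at the ceiling, against 0.236 to 0.543 for those below it. Single genes at the ceiling reached 0.799 in cold lyrata-labelled plants, 0.362 in cold halleri-labelled plants and 0.186 in dehydrated ones. The ceiling was set by the thaliana scores. In cold lyrata-labelled plants the highest second-allele scores lay above it, at 3572, 2716 and 4782. In cold halleri-labelled plants they were level with it, at 2776, 3796 and 3160. Either allele could place a gene at the ceiling. In cold lyrata-labelled plants the second allele alone did so for some genes, such as PSBX in plant 1. Those values need not be lower bounds.

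**Figure D1:**
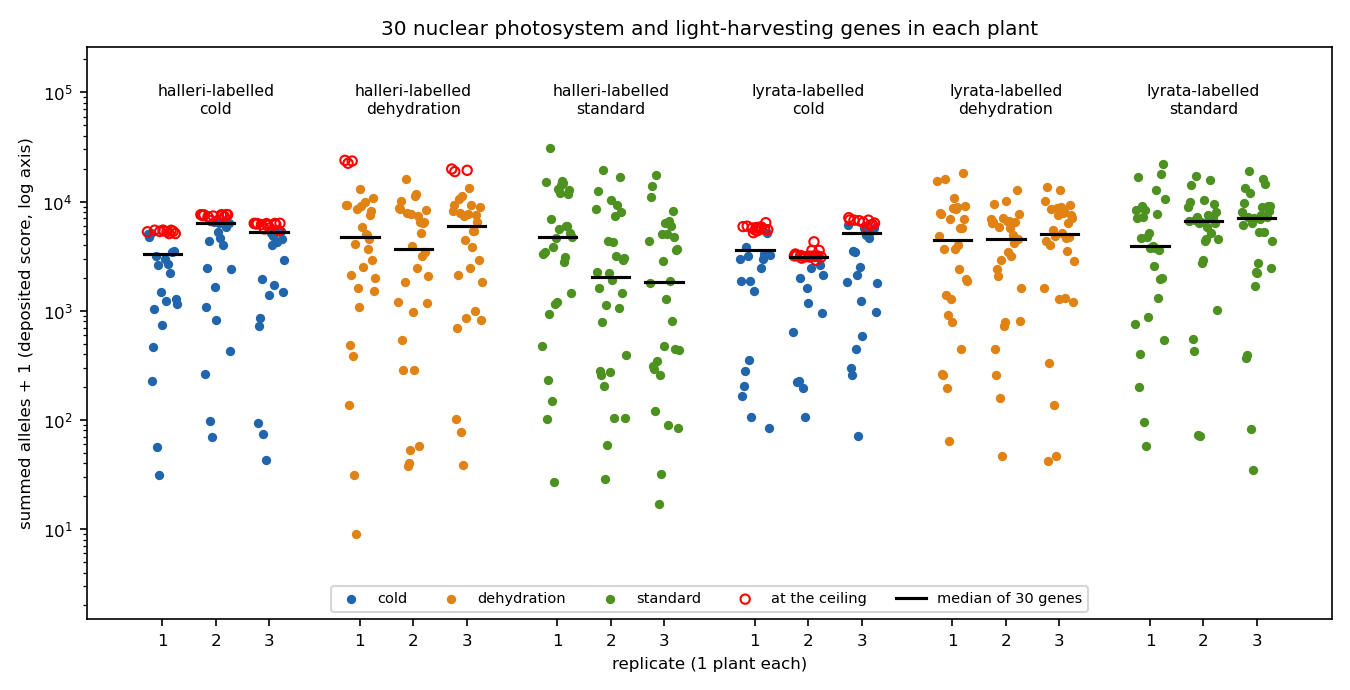
Summed value of each of the 30 genes (points; log axis, with 1 added) in each of the 18 plants, by hybrid and treatment, with the median of the 30 genes as a bar. Red open circles mark genes at the ceiling: they form a flat top in every cold library, where 10 to 18 of the 30 genes sit, while the standard plants spread up to 30721.

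Plants of a group also differed. In halleri-labelled standard plants the highest value was a median of 4.09 times the lowest over the 30 genes, and 7 of them spread more than 10-fold. Over all genes that averaged 50 or more in that group the median was 2.52 and 5.53% spread more than 10-fold. Standard plant 1 was mostly the one apart: PSAK, a core subunit of photosystem I, had 14251 in it, against 103 and 89 in plants 2 and 3. In dehydrated halleri-labelled plants 5 of 30 genes spread more than 10-fold, with plant 2 at 39 for LHCB6, against 4063 and 11236 in plants 1 and 3. Lyrata-labelled standard plant 1 stood apart too (scaling factor 0.785), as did lyrata-labelled dehydration plant 2, where the thaliana allele held 61.0% of all values. In 1 alternative fit, halleri-labelled cold plant 1 was left out together with these 2 plants. Its scaling factor of 1.13 was below those of halleri-labelled standard plants 2 and 3 (1.14 and 1.16). The halleri-labelled standard plants were all kept in that fit. With the 3 libraries left out, 6 of the calls named below were lost. They were those of PSAG after dehydration of halleri-labelled plants (limma adjusted p = 0.0515), PSAE2 between standard plants (0.106), the cold change of the PSBR ratio (0.108), the LHCA6 ratio in halleri-labelled plants (0.0782) and the hybrid differences in ratio of PSBTN (0.0679) and LHCA2 (0.0648).

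Dehydration of halleri-labelled plants gave the only treatment comparison of totals with a called photosystem gene, a call being an adjusted p under 0.05 in limma with Benjamini-Hochberg adjustment over 12941 genes. LHCA2 and PSAG rose, 2 of the 30 genes, and none fell. Over all genes tested 3.05% were called in this comparison, 2.21% as higher. The median log2 difference was 0.86 over the 30 genes and 0.07 over all genes, and 24 of the 30 differences were above 0. Leaving out 1 plant put the median over the 30 between 0.50 (without standard plant 2) and 1.07 (without standard plant 1). At an unadjusted p below 0.05 there were 10 of the 30 genes and 2481 of all 12941. LHCA2 (AT3G61470.1), an antenna protein of photosystem I, had 9280, 8786 and 8130 in dehydrated plants, against 3307, 2248 and 1783 in standard plants. All 3 dehydrated plants lay above all 3 standard plants, and the log2 difference was 2.02 ± 0.50 (SE, n = 3 each, limma adjusted p = 0.0311). PSAG (AT1G55670.1), a small membrane subunit of photosystem I, had 9066, 11214 and 7752 in dehydrated plants and 5640, 1901 and 1269 in standard plants. Its groups did not overlap either, although standard plant 1 was close to the dehydrated ones, and the log2 difference was 2.09 ± 0.56 (limma adjusted p = 0.0473).

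Neither call was firm. LHCA2 was not called when any 1 of the dehydrated plants or standard plants 2 or 3 was left out (adjusted p 0.0888 to 0.141), and PSAG was lost with the same plants (0.104 to 0.222). Both calls were also lost when only the groups compared were fitted.

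The next 4 genes by p were higher in every dehydrated than in every standard halleri-labelled plant and were not called. LHCB2.3 (AT3G27690.1), of the major photosystem II antenna, had 2128, 1839 and 2141 in dehydrated plants, against 929, 780 and 120 in standard plants (log2 difference 2.33 ± 0.66, limma adjusted p = 0.0592). PSAD1, which docks ferredoxin on photosystem I, had 8539, 7604 and 7308 in dehydrated plants and 1148, 4390 and 4999 in standard plants (adjusted p = 0.08). For both genes the dehydrated plants lay close together and the standard plants were scattered. PSBO2, which encodes a copy of the shield protein PsbO, had 3670, 5102 and 5382 in dehydrated plants, against 3080, 1047 and 803 in standard plants (adjusted p = 0.083). PSBX, a small photosystem II subunit, had 10726, 8397 and 8991 in dehydrated plants and 5146, 3012 and 3696 in standard plants (adjusted p = 0.141). Without standard plant 1, 9 genes rose in dehydrated plants, among 930 of 12934 genes called: LHCA2, LHCB2.3, LHCB4.1, PSAG, PSAK, PSBO2, PSBR, PSBY and PSBTN. PSAK had 2509, 2473 and 2451 in dehydrated plants, so that its log2 difference became 4.88 ± 0.61 without the 14251 of standard plant 1.

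Not all of the genes lay on that side. PSAO, a small photosystem I subunit, had 5037, 57 and 3819 in dehydrated halleri-labelled plants, against 14680, 3180 and 1878 in standard plants, and the groups overlapped. PSBP1, for the shield protein PsbP, had 4495, 3167 and 989 in dehydrated plants and 5938, 16689 and 8161 in standard plants. All 3 dehydrated plants were lower, and the gene was not called.

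Cold treatment of halleri-labelled plants gave no call among the 30 genes in limma, where 0.757% of all genes were called. At an unadjusted p below 0.05 there were 9 of the 30 genes and 1796 of all 12941. The median log2 difference was 0.65 over the 30 genes and 1.24 over the 12 that were never at the ceiling in these plants, against 0.07 over all genes. Leaving out 1 plant put the median over the 30 between 0.34 (without standard plant 3) and 1.1 (without cold plant 1). LHCA6 (AT1G19150.1), a rare antenna protein that joins photosystem I to the chloroplast NDH complex, came nearest. It had 468, 1080 and 717 in cold plants, against 231, 257 and 294 in standard plants, and was below the ceiling in every library. All cold plants lay above all standard plants (log2 difference 1.47 ± 0.46, limma adjusted p = 0.131). LHCB2.3 had 1038, 2457 and 858 in cold plants and 929, 780 and 120 in standard plants, and its groups overlapped. LHCA2 had 5042, 7544 and 6293 in cold plants, the last 2 at the ceiling, against 3307, 2248 and 1783 in standard plants, and PSAD1 had 5318, 7363 and 6284, all at the ceiling, against 1148, 4390 and 4999. The values at the ceiling are lower bounds, and every cold value of these 2 genes lay above every standard plant.

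LHCB3 and PSAN were lower on the deposited scale in cold halleri-labelled plants, and LHCB3 shows what the ceiling does. LHCB3, the third type of the major antenna, had 5464, 7265 and 6132 in cold plants, all 3 at the ceiling, against 30721, 19620 and 17653 in standard plants. No fall can be read from that gap. PSAN, a lumen subunit of photosystem I, had 5295, 4656 and 1733 in cold plants, the first at the ceiling, against 15438, 7303 and 6656 in standard plants. Cold plants 2 and 3 were below the ceiling for PSAN and below every standard plant, and the gene was not called. Without standard plant 1, 6 genes rose in cold plants among 443 genes called: LHCB4.1, PSAG, PSAK, PSBR, PSBY and PSBTN. PSAK, which was below the ceiling in this hybrid, then had a log2 difference of 5.21 ± 0.61 (limma adjusted p = 0.000108), from 1231, 6339 and 4809 in cold plants against 103 and 89 in standard plants 2 and 3.

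**Figure D2:**
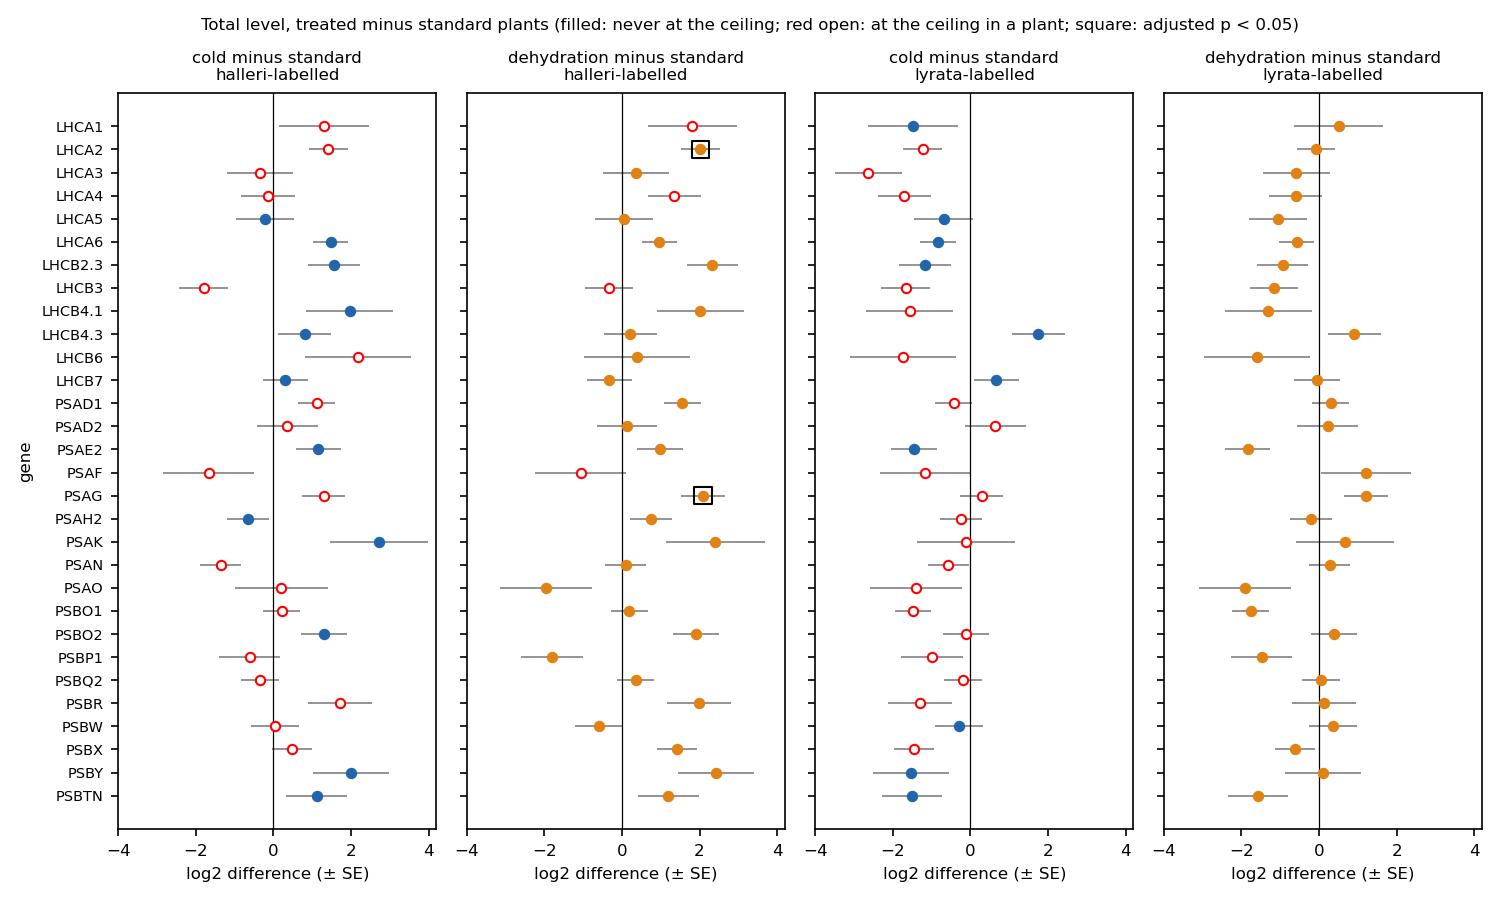
Log2 difference in total level, treated minus standard plants, for each gene (± SE, limma over 18 libraries), in halleri-labelled plants (left pair of panels) and lyrata-labelled plants (right pair). Filled points were below the ceiling in the plants compared, red open points were at the ceiling in at least 1 of them, and squares mark LHCA2 and PSAG, the 2 genes called.

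In lyrata-labelled plants no photosystem gene was called after cold or dehydration. After cold, 0.912% of all genes were called, and in limma 8 of the 30 and 1941 of all 12941 had an unadjusted p below 0.05. The median log2 difference was -1.17 over the 30 genes, -1.0 over the 10 never at the ceiling in these plants and 0.09 over all genes. PSAE2 (AT2G20260.1), a stromal subunit of photosystem I near its ferredoxin site, was below the ceiling and had 1520, 1174 and 1234 in cold plants, against 5095, 2901 and 2248 in standard plants. Every cold plant was lower (log2 difference -1.46 ± 0.59, limma adjusted p = 0.238). LHCB4.3 (AT2G40100.1), a minor antenna gene, ran the other way, with 354, 195 and 442 in cold plants and 94, 72 and 82 in standard plants (log2 difference 1.75 ± 0.68, limma adjusted p = 0.224). Its groups did not overlap.

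The 4 other lyrata-labelled genes with the smallest p after cold were at the ceiling. PSBO1, the main PsbO gene, had 5812, 3147 and 6748 in cold plants, against 7681, 15740 and 16144 in standard plants. PSBX had 5515, 3109 and 6345 in cold plants and 22127, 8042 and 9189 in standard plants, and LHCB3 had 5944, 3204 and 6750 in cold plants, against 9073, 17214 and 19110. LHCA3, an antenna protein of photosystem I, had 166, 3305 and 7107 in cold plants and 7099, 9857 and 9659 in standard plants, with cold plant 1 far below the ceiling and plants 2 and 3 at it, so that its groups overlapped. All cold values of PSBO1 and LHCB3 are lower bounds, so a fall cannot be read for them. The same holds for PSBX in cold plants 2 and 3. In cold plant 1 only the second allele of PSBX (2780) was at the ceiling, beside a thaliana allele of 2735, so that value need not be a lower bound.

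Dehydrated and standard lyrata-labelled plants had no gene at the ceiling. There, none of the 30 genes and 0.417% of all genes were called, and in limma 3 of the 30 and 2375 of all 12941 had an unadjusted p below 0.05. PSBO1 had 2418, 4889 and 4585 in dehydrated plants, against 7681, 15740 and 16144 in standard plants (log2 difference -1.76 ± 0.47, limma adjusted p = 0.0831). PSAE2 had 788, 779 and 1280 in dehydrated plants and 5095, 2901 and 2248 in standard plants (log2 difference -1.84 ± 0.59, adjusted p = 0.116). Both genes were lower in every dehydrated plant. PSBTN, an extrinsic subunit of photosystem II, had 1876, 1616 and 2854 in dehydrated plants, against 10562, 4576 and 4334 in standard plants, again with no overlap (adjusted p = 0.29). PSAG ran the other way, with 10766, 6565 and 8852 in dehydrated plants and 3860, 4325 and 2760 in standard plants (log2 difference 1.21 ± 0.56, adjusted p = 0.257). For PSBP1 and LHCB3 the groups overlapped: PSBP1 had 445, 6522 and 6295 in dehydrated plants, against 3591, 7037 and 14390, and LHCB3 had 16067, 2091 and 8613, against 9073, 17214 and 19110. The median over the 30 genes was -0.14, and between -0.36 (without dehydrated plant 3) and -0.10 (without dehydrated plant 2) when 1 plant was left out.

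**Figure D3:**
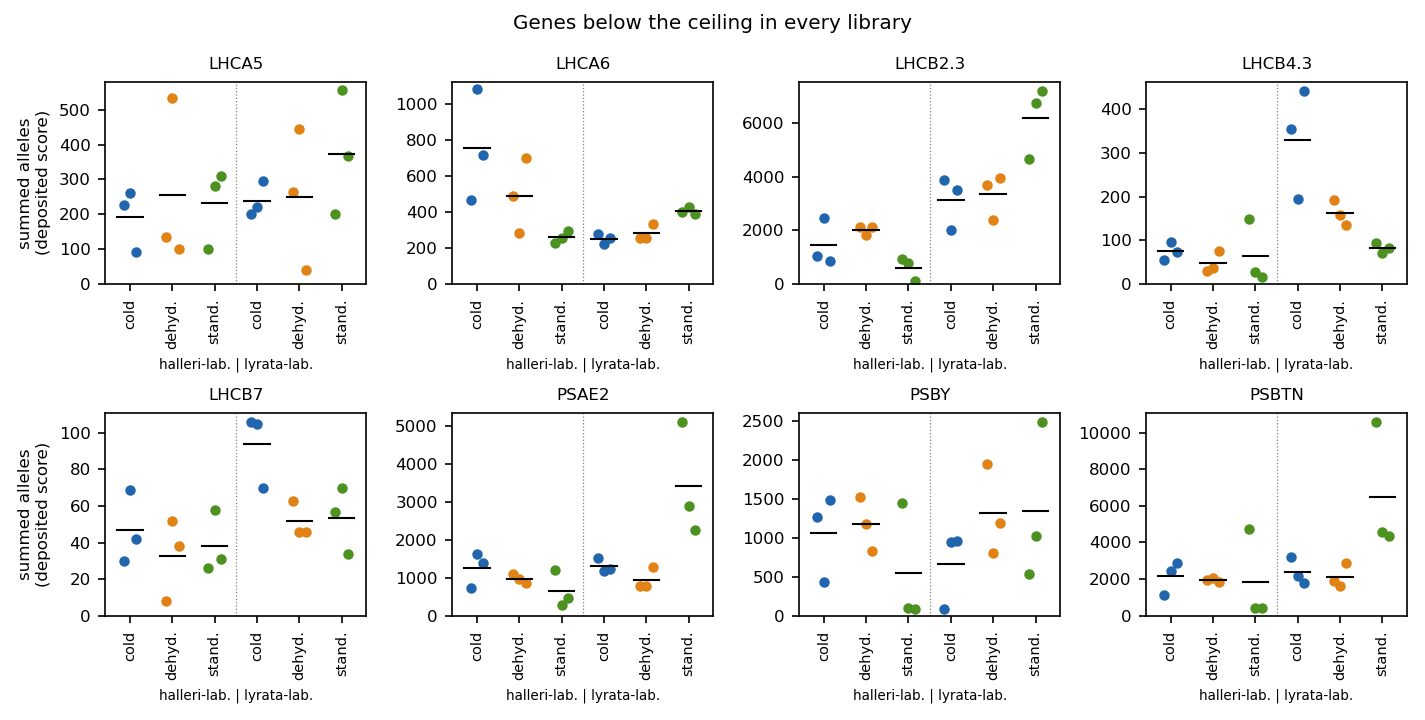
Summed values of the 8 genes that were below the ceiling in every library, 1 point per plant and a bar at the group mean, for cold, dehydrated and standard plants of each hybrid (halleri-labelled left of the dotted line). LHCA6 was at 468 to 1080 in cold and 231 to 294 in standard halleri-labelled plants, LHCB2.3 and PSAE2 were highest in lyrata-labelled standard plants, and PSBTN, PSBY and LHCB4.3 had 1 high plant among the halleri-labelled standard plants.

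Cold and dehydrated plants, which share the dim light, did not differ by a called photosystem gene in either hybrid. In halleri-labelled plants 0.0618% of all genes were called, and in limma 4 of the 30 and 1680 of all 12941 had an unadjusted p below 0.05. In lyrata-labelled plants 0.0232% of all genes were called, and 2 of the 30 and 1190 of all 12941 had an unadjusted p below 0.05. The smallest p among genes below the ceiling in halleri-labelled plants was that of PSAH2, a photosystem I subunit where the antenna docks, with 2960, 5228 and 4008 in cold plants and 5825, 11814 and 13415 in dehydrated plants (log2 difference -1.42 ± 0.54, limma adjusted p = 0.276). All its cold plants were lower. PSAN had 5295, 4656 and 1733 in cold plants, against 9903, 7411 and 9305 in dehydrated ones. In the same plants LHCA4, which pairs with LHCA1 in the photosystem I antenna, had 5201, 7556 and 6292 in cold plants, against 22411, 10072 and 18788 in dehydrated ones. Cold plants 2 and 3 and dehydrated plants 1 and 3 were at their ceilings for this gene. LHCB3 had 5464, 7265 and 6132 in cold plants, all at the ceiling, and 23480, 16089 and 10453 in dehydrated plants, the first at the ceiling. PSBX had 5091, 6422 and 4543 in cold plants, the first at the ceiling, against 10726, 8397 and 8991 in dehydrated ones. PSAO had 2692, 7573 and 6296 in cold plants and 5037, 57 and 3819 in dehydrated plants, which overlapped.

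In lyrata-labelled plants the genes below the ceiling overlapped between cold and dehydrated plants where they came first by p. LHCA1 had 2950, 634 and 1827 in cold plants and 15251, 6885 and 1610 in dehydrated plants, and PSBY, a small photosystem II subunit, had 84, 950 and 964, against 1944, 811 and 1195. PSAF, which docks plastocyanin on photosystem I, had 5466, 3164 and 583 in cold plants and 8749, 10120 and 12856 in dehydrated plants. Its first 2 cold values were at the ceiling, the first by the second allele alone. PSBR had 6399, 3569 and 6149 in cold plants, all at the ceiling, the last by the second allele alone, against 18386, 12652 and 9311. LHCA2 had 1872, 3175 and 6035 in cold plants, the second at the ceiling, against 4821, 6350 and 10213. LHCA3 had 166, 3305 and 7107 in cold plants, against 7850, 6428 and 4368 in dehydrated plants, and the groups of LHCA2 and LHCA3 overlapped.

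Under standard conditions LHCB2.3 and PSAE2 were lower in halleri-labelled than in lyrata-labelled plants. These were 2 of the 30 genes, both lower, where 1.79% of all genes were called and 1.35% as lower. At an unadjusted p below 0.05 there were 13 of the 30 genes and 2248 of all 12941. None of these plants had a ceiling. LHCB2.3 had 929, 780 and 120 in halleri-labelled plants, against 4663, 6732 and 7193 in lyrata-labelled plants (log2 difference -3.91 ± 0.66, limma adjusted p = 0.00485). PSAE2 had 1200, 271 and 475 in halleri-labelled plants and 5095, 2901 and 2248 in lyrata-labelled plants (log2 difference -2.71 ± 0.59, limma adjusted p = 0.0217). For both genes every halleri-labelled plant lay below every lyrata-labelled plant. LHCB2.3 stayed called without any 1 standard plant (adjusted p 0.00038 to 0.0228), whereas PSAE2 was not called without lyrata-labelled standard plant 1 (0.118) or halleri-labelled standard plant 2 or 3 (0.102 and 0.0955). Neither was called when only these 6 libraries were fitted (0.177 and 0.257).

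The *A. thaliana* promoters of these 2 genes are shown because both genes were called lower in the same comparison. Both hold a G-box, the motif CACGTG, which is bound by light- and clock-related transcription factors. The 250 bases before the annotated transcript start are given 5′ to 3′ on the gene's strand, from RefSeq TAIR10.1, with the G-box and CCAAT or its reverse complement ATTGG in capitals. LHCB2.3 lies on the plus strand with this window at chr3:10255691-10255940, and PSAE2 on the plus strand at chr2:8736484-8736733.
LHCB2.3: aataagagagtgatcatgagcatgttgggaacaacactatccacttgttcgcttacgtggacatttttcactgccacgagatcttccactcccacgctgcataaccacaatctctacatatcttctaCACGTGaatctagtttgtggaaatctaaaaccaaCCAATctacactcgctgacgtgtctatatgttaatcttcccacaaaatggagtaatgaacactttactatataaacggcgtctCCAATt
PSAE2: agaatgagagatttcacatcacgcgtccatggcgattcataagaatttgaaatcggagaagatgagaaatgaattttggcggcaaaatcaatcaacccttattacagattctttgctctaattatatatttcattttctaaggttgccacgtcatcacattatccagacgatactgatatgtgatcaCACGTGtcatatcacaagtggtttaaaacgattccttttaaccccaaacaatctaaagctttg

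The G-box starts at -123 in LHCB2.3 and at -63 in PSAE2, counted from -1 at the last base before the start. Searched on both strands, CACGTG was in 9 of the 30 promoters (30%: LHCA4, LHCB2.3, LHCB4.1, LHCB6, LHCB7, PSAE2, PSAH2, PSBQ2 and PSBTN), against 6.01% of all 31272 promoters of the same length. GATAAG, the core of the I-box known from light-regulated genes, was in 26.7% of the 30 promoters and 12.8% of all. CCAAT was in 60.0% of the 30 promoters and 45.3% of all, the evening element core AATATCT in 10 and 9.63%, and CCGAC, the core of the cold- and drought-linked C-repeat, in 10 and 12.5%. The other genes with CACGTG were not called between the standard plants of the hybrids, and both hybrids carry the same thaliana genome. These are matches of letters in the thaliana genome, and the second parents' promoters were not analysed here. Whether the G-box bears on the levels of LHCB2.3 and PSAE2 was not tested.

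The same 2 standard groups also set the spread of the other genes. PSBTN had 4757, 395 and 438 in halleri-labelled standard plants, against 10562, 4576 and 4334 in lyrata-labelled ones, and PSBR, which binds near the oxygen-evolving complex, had 11739, 1456 and 441, against 17721, 9582 and 9022. For both genes halleri-labelled plant 1 overlapped the lyrata-labelled group and plants 2 and 3 lay far below it. PSBX and LHCA2 did not overlap: LHCA2 had 3307, 2248 and 1783 in halleri-labelled plants and 8323, 6671 and 6077 in lyrata-labelled plants (limma adjusted p = 0.0846). Without halleri-labelled standard plant 1, 11 of the 30 genes were lower in halleri-labelled plants, among 606 genes called, and with standard plant 1 of both hybrids left out 8 were, among 409.

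The hybrids' responses were compared by an interaction term, which reuses the same standard plants. The response of halleri-labelled plants lay above that of lyrata-labelled plants by a median of 1.59 for cold and 1.28 for dehydration over the 30 genes. Over all genes the medians were -0.02 and 0.00, and no photosystem gene was called for either response. The cold median includes values at the ceiling. Of the 30 genes, 18 were there in at least 1 cold halleri-labelled plant and 20 in at least 1 cold lyrata-labelled plant. Of all 12941 genes 0.0155% were called for cold and none for dehydration. In limma, 11 of the 30 genes had an unadjusted p below 0.05 for cold, against 991 of all genes, and 8 of the 30 for dehydration, against 1256 of all genes. The smallest p for dehydration were those of LHCB2.3 (2.33 in halleri-labelled and -0.94 in lyrata-labelled plants, interaction 3.27 ± 0.94, limma adjusted p = 0.32) and PSAE2 (0.98 and -1.84, interaction 2.82 ± 0.83, adjusted p = 0.322). After cold, LHCA2 (1.41 and -1.23, limma adjusted p = 0.359) and LHCA6 (1.47 and -0.84, adjusted p = 0.37) had the smallest p. LHCA2 was at the ceiling in 2 cold halleri-labelled plants and 1 cold lyrata-labelled plant, so the size of its 2 responses cannot be read. LHCA6 was never at the ceiling. Without halleri-labelled standard plant 1, 7 genes were called for cold and 5 for dehydration, among 148 and 142 genes, and without standard plant 1 of both hybrids 4 and 4, among 94 and 124. PSAK and PSBTN were called for both treatments in either case.

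Other genes of photosynthesis and its control were read from lists of named genes. Of 11 electron transport genes, ATPG (a chloroplast ATP synthase subunit) rose after cold and PETE2 (plastocyanin) rose after dehydration in halleri-labelled plants. The same 2 genes were lower in halleri-labelled than in lyrata-labelled standard plants. Over all genes 0.757% were called after cold and 3.05% after dehydration in halleri-labelled plants, and 1.79% between standard plants. Of 18 Calvin cycle genes, CP12-1, a regulator of the cycle, rose after both treatments in halleri-labelled plants, with 2210, 3598 and 3719 in dehydrated plants against 684, 81 and 207 in standard plants. In lyrata-labelled plants no gene of either list was called after cold or dehydration, and limma gave unadjusted p below 0.05 for 1 and 3 electron transport genes and for 4 and 1 Calvin cycle genes. The counts of all genes at that p are given above for the same 2 comparisons. Among 8 clock genes 3 rose in each of the 4 treatment comparisons, beside the 0.417 to 3.05% of all genes called in them. PRR5, an evening clock gene, had 127, 124 and 135 in cold and 184, 179 and 89 in dehydrated halleri-labelled plants, against 0, 5 and 2 in standard plants. In lyrata-labelled plants it had 224, 325 and 184 in cold and 183, 117 and 44 in dehydrated plants, against 5, 9 and 8 in standard plants. PRR5 was higher in every treated than in every standard plant of both hybrids, and the part of the clock genes in the photosystem results was not tested.

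**Figure D4:**
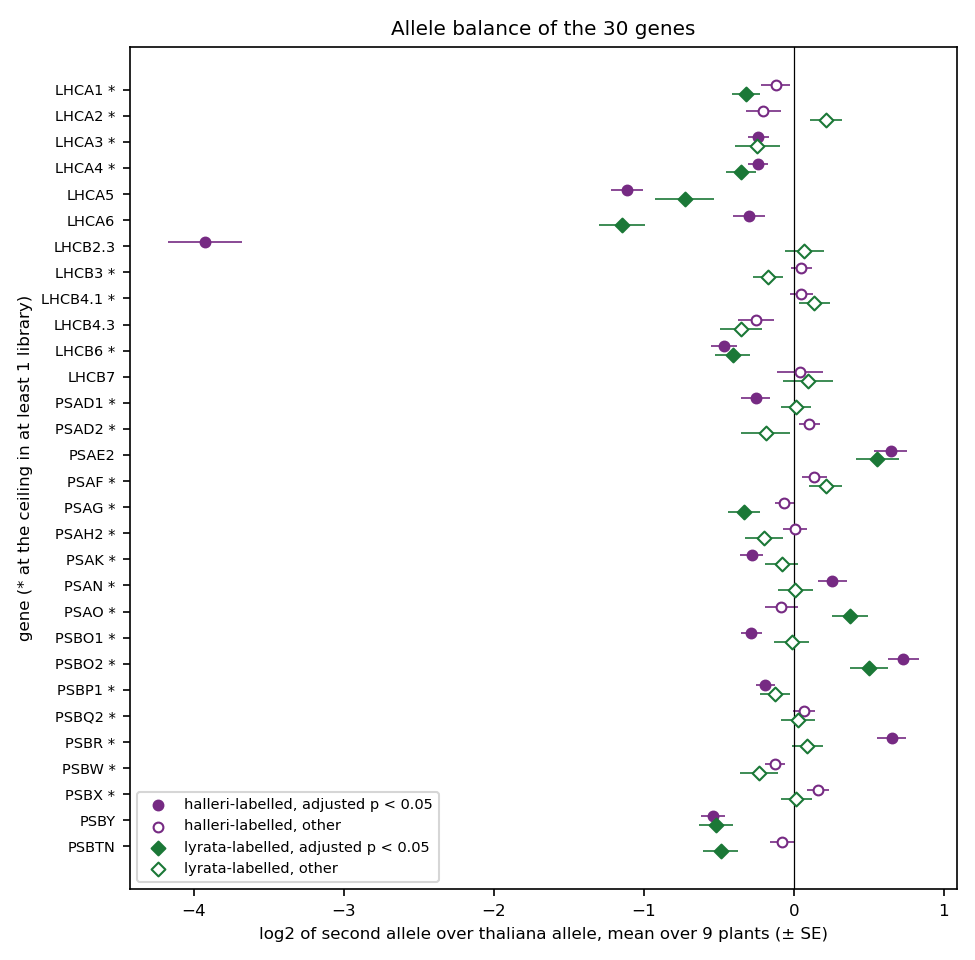
Mean log2 ratio, second allele over thaliana allele, for each gene over the 9 plants of a hybrid (± SE, limma), with 0 for equal alleles. LHCB2.3 lies at -3.93 in halleri-labelled plants and near 0 in lyrata-labelled plants, and most other genes lie between -1.2 and 0.8; stars mark genes at the ceiling in at least 1 library.

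In a hybrid both alleles share 1 nucleus, so their ratio compares them under the same conditions. In halleri-labelled plants 15 of the 30 genes had unequal alleles, 4 with the second and 11 with the thaliana allele higher, where 60.4% of 11655 genes were called, 34.9% with the second and 25.5% with the thaliana allele higher. In lyrata-labelled plants 11 of 30 did, 3 with the second and 8 with the thaliana allele higher, where 47.8% of 11697 genes were called, 22.6% with the second and 25.2% with the thaliana allele higher. With genes at the ceiling left out the counts were 7 of 12 photosystem genes in halleri-labelled plants and 6 of 10 in lyrata-labelled plants. Over all genes 7018 of 11613 and 5550 of 11629 were then called. The median log2 ratio over the 30 genes was -0.10 in both hybrids, against 0.08 and -0.03 over all genes, and in lyrata-labelled plants it was -0.06 without dehydrated plant 2.

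LHCB2.3 had the most unequal alleles. In halleri-labelled plants its second allele had 116, 188 and 98 in cold plants, 67, 37 and 63 in dehydrated plants and 37, 74 and 17 in standard plants. The thaliana allele had 922, 2269 and 760 in cold plants, 2061, 1802 and 2078 in dehydrated plants and 892, 706 and 103 in standard plants. The thaliana allele was higher in 9 of 9 plants, by a mean log2 ratio of -3.93 ± 0.25 (SE, limma adjusted p = 7.26e-06). In lyrata-labelled plants the alleles were close, with 2601, 3420 and 3552 for the second and 2062, 3312 and 3641 for the thaliana allele in standard plants (mean log2 ratio over 9 plants 0.07 ± 0.13). The hybrids differed by -4.0 ± 0.27 (limma adjusted p = 6.89e-08), where 30.7% of 11193 genes differed. The thaliana allele of LHCB2.3 was also lower in halleri-labelled than in lyrata-labelled standard plants, at 892, 706 and 103 against 2062, 3312 and 3641. Its nearest relative among the 44 genes was LHCB2.1, with 85.8% of coding bases identical, and the sources used here do not say how reads were assigned between relatives and alleles.

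Among the rarer photosystem I antenna genes, LHCA5 and LHCA6, the thaliana allele was higher in both hybrids. Both proteins link photosystem I to the NDH complex. LHCA5 had a log2 ratio of -1.11 ± 0.11 in halleri-labelled plants, with the thaliana allele higher in 9 of 9, and -0.73 ± 0.20 in lyrata-labelled plants, with 8 of 9. LHCA6 had a second allele of 90, 73 and 92 in cold, 80, 58 and 115 in dehydrated and 148, 123 and 102 in standard lyrata-labelled plants, against 190, 151 and 163, 178, 198 and 217, and 252, 307 and 289 for the thaliana allele in the same groups. The thaliana allele was higher in all 9 of these plants, at a log2 ratio of -1.14 ± 0.15 (limma adjusted p = 0.000273). In halleri-labelled plants the ratio of LHCA6 was -0.30 ± 0.11 (limma adjusted p = 0.0363), with the thaliana allele higher in 7 of 9 plants and lower in standard plants 1 and 3. That call was lost without any 1 of the 3 cold plants, dehydrated plants 1 and 3 or standard plants 2 and 3 (adjusted p 0.0609 to 0.0883). The hybrids differed by 0.85 ± 0.17 (limma adjusted p = 0.00177).

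The second allele was higher in both hybrids for PSAE2 and PSBO2. PSAE2 had a log2 ratio of 0.64 ± 0.11 in halleri-labelled plants, where 9 of 9 plants lay on that side, and 0.56 ± 0.14 in lyrata-labelled plants, where 8 of 9 did. In dehydrated halleri-labelled plants that meant 658, 569 and 499 for its second and 429, 394 and 352 for its thaliana allele. PSBO2 had 0.73 ± 0.11 in halleri-labelled plants, with 9 of 9 on that side, and 0.50 ± 0.12 in lyrata-labelled plants, with 8 of 9. The thaliana allele was higher in both hybrids for PSBY (-0.54 ± 0.08 and -0.52 ± 0.12), LHCB6 (-0.47 ± 0.09 and -0.41 ± 0.12) and LHCA4 (-0.24 ± 0.07 and -0.35 ± 0.10), halleri-labelled plants first. It was higher in 9 of 9 halleri-labelled plants for PSBY and LHCB6 and 7 of 9 for LHCA4, and in 8, 7 and 6 of 9 lyrata-labelled plants for PSBY, LHCB6 and LHCA4. LHCB6 was not called in lyrata-labelled plants without cold plant 3 (adjusted p = 0.0504). In all 7 genes called in both hybrids the same side was higher, which is 46.7% of the calls in halleri-labelled and 63.6% in lyrata-labelled plants. Over all genes 60.4 and 47.8% were called in the 2 hybrids. How many of those calls were shared, or on the same side, was not counted. LHCB6 and LHCA4 were at the ceiling in some cold plants, LHCA4 also in 2 dehydrated halleri-labelled plants, and on a scale held to the lowest ceiling LHCA4 in lyrata-labelled plants was at 0.00.

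PSBTN, PSBR, PSAO and LHCA2 differed between the hybrids besides LHCB2.3 and LHCA6. PSBTN had a log2 ratio of -0.08 in halleri-labelled and -0.49 in lyrata-labelled plants, a difference of 0.41 ± 0.13 (limma adjusted p = 0.0233), and was never at the ceiling. PSBR was at 0.65 and 0.09 (difference 0.56 ± 0.13), PSAO at -0.08 and 0.37 (-0.46 ± 0.16) and LHCA2 at -0.20 and 0.21 (-0.42 ± 0.15). The last 3 genes were at the ceiling in 6, 4 and 3 of the cold libraries. Their ratios there were not all near 0: PSBR had 0.30, 0.40 and 0.24 in cold lyrata-labelled plants, all at the ceiling, and PSAO had 0.62, 0.80 and 0.48, the last 2 at the ceiling. In cold lyrata-labelled plants 1 and 2 the thaliana allele of PSBR was at the ceiling (2864 and 1536), beside second alleles of 3535 and 2033. For PSAO this held in plant 2, with 1560 and 2715. Whether a limit on 1 allele alone sets these ratios was not tested. Of the 4 genes, PSBTN, PSAO and LHCA2 were each lost with 1 plant left out.

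The allele balance changed with treatment for LHCB4.3 in halleri-labelled plants. Its log2 ratio was -1.12, -1.34 and -1.30 in cold plants and -1.14, -1.17 and -0.79 in dehydrated plants, against 2.2, 1.0 and 1.38 in standard plants. The second allele was lower than the thaliana allele in all 6 treated plants and higher in all 3 standard plants. The change was -2.78 ± 0.29 after cold (limma adjusted p = 0.00842), where 0.978% of all genes were called, and -2.56 ± 0.29 after dehydration (adjusted p = 0.00977), where 2.05% were. The 2 changes share the standard plants. The scores behind them were small, and standard plants 2 and 3 had 19 and 12 for the second and 9 and 4 for the thaliana allele, against 123 and 26 in plant 1. Cold plants had 17, 27 and 21 for the second and 38, 70 and 53 for the thaliana allele. The change after dehydration was called with any 1 plant left out (adjusted p at most 0.0467), and that after cold was lost without cold plant 2 (0.0512) or cold plant 3 (0.0578). In lyrata-labelled plants LHCB4.3 lay between -0.97 and 0.19 in all 9 plants.

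The thaliana promoter of LHCB4.3 is shown because its allele balance was called as changed after both treatments. It lies on the plus strand with its window at chr2:16745378-16745627 (RefSeq TAIR10.1), again 250 bases before the start with ATTGG, the reverse complement of CCAAT, in capitals.
LHCB4.3: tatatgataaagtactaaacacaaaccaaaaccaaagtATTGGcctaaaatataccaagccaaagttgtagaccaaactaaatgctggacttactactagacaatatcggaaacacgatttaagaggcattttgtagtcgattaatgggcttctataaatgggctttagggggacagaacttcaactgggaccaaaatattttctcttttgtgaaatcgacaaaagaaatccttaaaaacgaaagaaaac
Of the 5 motifs searched, only the CCAAT box, at -212, is in this window.

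**Figure D5:**
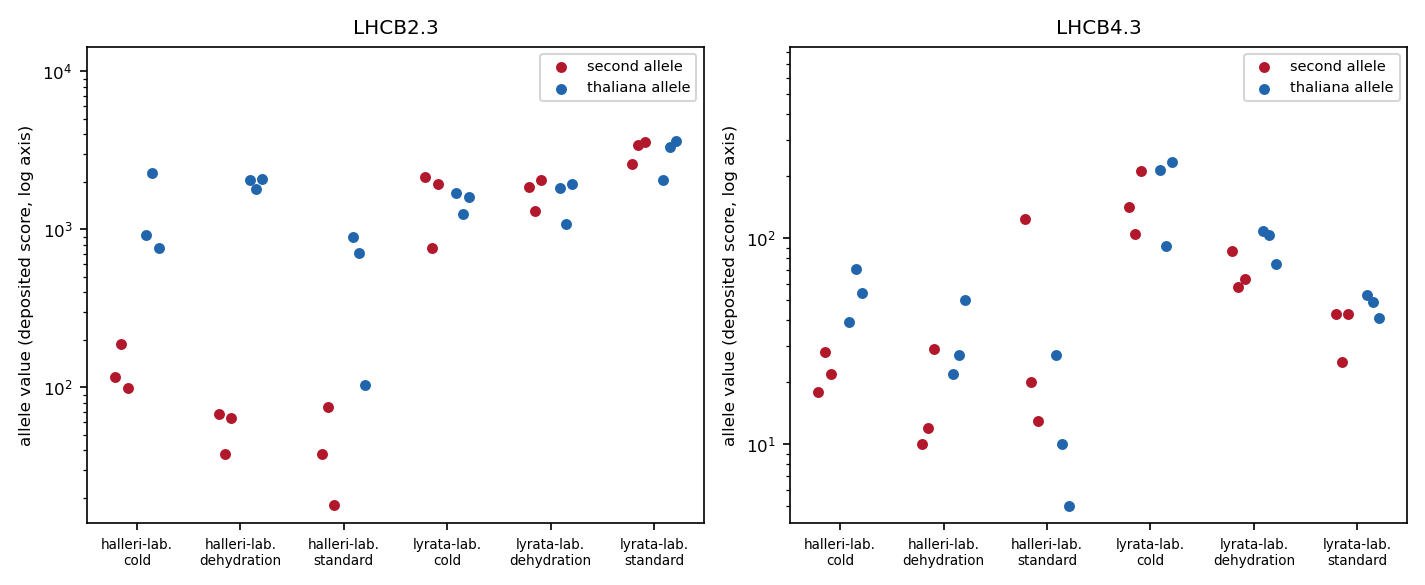
Deposited scores of the second allele (red) and the thaliana allele (blue) of LHCB2.3 and LHCB4.3 in each plant, on log axes, for cold, dehydrated and standard plants of each hybrid. LHCB2.3 has its second allele below its thaliana allele in every halleri-labelled plant, and LHCB4.3 has red above blue within each halleri-labelled standard plant and blue above red within each treated one.

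PSBR was the other gene whose ratio changed after cold in halleri-labelled plants, at 0.08, 0.00 and 0.00 in cold plants, against 0.86, 1.64 and 1.4 in standard plants (-1.27 ± 0.24, limma adjusted p = 0.0451). All 3 cold plants were at the ceiling, and the gene is not counted when genes at the ceiling are left out. After dehydration, where it was below the ceiling, PSBR had 0.60, 0.66 and 0.64 and was not called. PSAO came next after dehydration, with 0.37, 0.25 and 0.47 in dehydrated plants, against -0.17, -1.27 and -0.79 in standard plants (1.1 ± 0.27, limma adjusted p = 0.0723), and no overlap. For LHCA2, PSBO2, PSAG and PSAK, the other genes with the smallest p after dehydration, the changes were 0.89, -0.76, -0.47 and 0.53 (adjusted p 0.13 to 0.154). LHCA2 had 0.16, 0.19 and 0.09 in dehydrated plants, against 0.01, -1.17 and -1.07 in standard plants, and PSBO2 had 0.43, 0.55 and 0.53, against 0.84, 1.75 and 1.21. Neither gene's groups overlapped, and standard plant 1 was the nearest to the dehydrated plants in both. LHCB2.3, added for its unequal alleles, had -4.92, -5.57 and -5.02 in dehydrated plants and -4.55, -3.24 and -2.53 in standard plants (-1.73 ± 0.61, adjusted p = 0.155), also without overlap. In lyrata-labelled plants no gene of 11697 was called for a change of ratio in limma, with 1145 at an unadjusted p below 0.05 after cold and 1565 after dehydration, of which 3 and 0 were photosystem genes. PSBY had the smallest p among those below the ceiling after cold, with -0.68, -0.79 and -0.83 in cold plants, against -0.21, 0.00 and -0.11 in standard plants (-0.67 ± 0.28, limma adjusted p = 0.484). Its groups did not overlap.

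Some of the 14 transcripts not analysed here differed from the 30 in their relatives. For each of the 44 the nearest other one of the same name family was found from the annotated coding sequences. Of the 14, 7 shared more than 90% of coding bases with another of the 44, up to 96.6%, all of them LHCB1 or LHCB2 genes. LHCB5, LHCB4.2, PSAE1, PSBQ1 and PSAH1 were at 68.1 to 87.0%, and PSAL and PSBS had no relative to compare. The median of the 14 where a relative was found was 92.5%. Of the 30 none exceeded 90%, with values of 65.2 to 88.0% where a relative was found. The LHCB1 genes, which encode the most abundant antenna protein of the leaf, are among the 14, so the shares and counts above leave them out.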

How the data were processed

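RNA was sequenced from 18 plants, 3 for each of 6 groups of hybrid and treatment, grouped by their labels. The authors deposited a score per gene and allele: judging by the values, reads times a library's own factor, rounded, plus 1. Per the submitters' processing notes, TopHat2, SAMtools, DESeq2 and TAIR10 were used, with neither version nor role stated, and read depth is unknown for most libraries. Missing whole numbers in the dehydrated halleri-labelled libraries 1 and 3 imply 995671 and 1197550 reads and ceilings of 7964 and 7993 reads. The labels do not say that replicates of different groups share a day, and same-numbered plants did not deviate together (correlations of -0.275 to 0.172 over 45 pairs), so numbers were not used as pairs.

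Summed alleles, less the 1 per allele, were scaled by TMM factors and tested as log2(value + 2) for 12941 genes with at least 10 in at least 3 libraries. A fold change is on that scale, which understates changes of low genes. Allele ratios were tested on the deposited scores where a gene averaged 10 or more. Both used limma 3.58.1 (trend, robust) in R 4.3.3, 2-sided, with Benjamini-Hochberg adjustment over all genes tested, and p-values measure the spread between these plants. The scripts were tested on simulated data. Of 16419 transcripts 16400 matched the TAIR10.1 annotation, which was read for coordinates and promoters (Python 3.11.15, Biopython 1.88).

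The photosystem genes and all lists were chosen with earlier results of these data known. Per-plant values were given for called genes and, below 6 calls, for the 6 genes with the smallest p and a mean of at least 50. The marker and pathway lists were root, flower, epidermis, vasculature and guard cell markers, electron transport, Calvin cycle, antenna-like proteins, assembly factors, state transitions, regulators, clock, chlorophyll synthesis and darkness or starvation. Alternatives were other scaling, filters and added numbers, fits of the compared groups, a replicate block, centred ratios and left-out libraries. Chosen after seeing the data were leaving out genes at the ceiling, limiting every allele to the lowest ceiling (1565) and leaving out standard plant 1 of both hybrids.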

Additional observations from a re-analysis of the deposited data

Results flagged for a closer look

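The log2 ratio of the second over the thaliana allele differed between the hybrids for 6 of the 30 photosystem genes in the test of the difference itself (limma over 18 plants, adjusted p below 0.05). Over all 11193 genes tested, 3438 (30.7%) were called in that test. The differences, halleri-labelled minus lyrata-labelled, were -4.0 for LHCB2.3, 0.85 for LHCA6, 0.56 for PSBR, 0.41 for PSBTN, -0.46 for PSAO and -0.42 for LHCA2. LHCB2.3, LHCA6 and PSBTN were below the ceiling in every library. LHCB2.3 and LHCA6 remained called with any 1 plant left out (highest adjusted p 4.95e-07 and 0.00474), while PSBTN, PSAO and LHCA2 did not (0.0501, 0.0755 and 0.0955).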

How the results depend on the processing

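Counts are of the 30 photosystem genes called. After dehydration of halleri-labelled plants the count of 2 became 1 with relative log expression scaling, with no filter or with 10 added. It was also 1 without lyrata-labelled standard plant 1, lyrata-labelled dehydration plant 2 and halleri-labelled cold plant 1, the 3 libraries left out together. It was 0 with only the compared groups fitted or every allele limited to the lowest ceiling. Leaving out 1 plant gave 0 to 9 there, 1 to 11 for the hybrids under standard conditions, 0 to 6 for cold in halleri-labelled plants, 0 to 1 for cold in lyrata-labelled plants (1 without cold plant 3), and 0 to 7 and 0 to 5 for the hybrids' difference in cold and dehydration response. The highest counts in halleri-labelled plants and between hybrids came without halleri-labelled standard plant 1. Without standard plant 1 of both hybrids the counts were 9 for cold and 11 for dehydration in halleri-labelled plants. Over all 12875 genes tested, 623 and 1247 were then called. The counts were 8 between standard plants, among 409 genes called, and 4 and 4 for the responses, among 94 and 124. Between standard plants the count was 0 with only those groups fitted and 1 when those 3 libraries were left out. With only the compared groups fitted, the genes called of all tested were 115 in place of 395 after dehydration and 2 in place of 98 after cold in halleri-labelled plants, 14 in place of 118 after cold and 0 in place of 54 after dehydration in lyrata-labelled plants, and 12 in place of 232 between standard plants.

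For allele ratios, the counts with genes at the ceiling left out, and with the lowest ceiling, were 7 and 6 in halleri-labelled plants, 6 and 5 in lyrata-labelled plants, and 3 and 2 for the hybrid difference. The count for cold in halleri-labelled plants was 1 with 0.5 added, with each plant's median ratio set to 0, with no filter, with the replicate block, leaving out those 3 libraries, and under both ceiling settings, and 0 to 4 with 1 plant left out. That for dehydration was 2 at a mean of at least 50, and 1 to 4 with 1 plant left out. With the replicate block, all genes called for these ratio changes were 9 in place of 114 after cold and 36 in place of 239 after dehydration, and the block moved no other count of photosystem genes by over 1.5 times.

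At the lowest ceiling the sign turned for PSAG after dehydration in lyrata-labelled plants (-0.0201), LHCB3 after cold in halleri-labelled plants (0.0186), the allele ratios of LHCA4 in lyrata-labelled plants (6e-04) and of LHCA3 (0.00) and PSAD1 (0.0341) in halleri-labelled plants, and the ratio changes after dehydration in lyrata-labelled plants of PSBX (0.00), PSBR (0.00) and PSBO1 (0.0048). The median of those changes turned to 0.00 there and to 0.0239 with each plant's median ratio set to 0. Limiting values to the lowest ceiling flattens high genes by construction, and the other causes were not tested. Read depth could be recovered for 5 of the 18 libraries only, so counting error is unknown for the rest.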

Other observations

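Chlorophyll and regulator genes outside the photosystems gave few calls. PORA, which makes chlorophyll precursors in young tissue, was the only one of 11 chlorophyll synthesis genes called between the standard groups, where 1.79% of all genes were, with a mean of 1081 in halleri-labelled plants and 15 in lyrata-labelled plants (log2 difference 5.65 ± 0.76, limma adjusted p = 0.00118). After dehydration of halleri-labelled plants, where 3.05% of all genes were called, 1 of 4 state transition genes, 1 of 7 antenna-like genes and 1 of 9 regulators were. STN8, a kinase that phosphorylates photosystem II core proteins and is on the state transition list, rose to a mean of 228, against 28.7 in standard plants (3.64 ± 0.72, limma adjusted p = 0.0097). ELIP1, a stress-induced relative of the antenna proteins, rose to 56.7, against 10 (2.60 ± 0.63, adjusted p = 0.0297). PIF3, a repressor of these genes in the dark, fell to a mean of 4.67, against 48.0 in standard plants (-3.38 ± 0.74, adjusted p = 0.0172). None of 9 assembly factors, 4 starvation genes or 4 guard cell markers was called in limma in the 4 treatment comparisons, nor were the epidermis and vasculature markers, with 1 gene each, and at most 2 genes of any of these lists had an unadjusted p below 0.05 in a comparison.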
